A study of Mus musculus with 7 samples.

Results

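The FoxO factors are the 4 forkhead transcription factor genes Foxo1, Foxo3, Foxo4 and Foxo6, and the values below describe the open chromatin at and around these genes in freshly isolated mouse muscle stem cells (MuSCs). They were chosen by name among 21440 protein-coding genes with a known transcription start. In each of 7 libraries, every peak that overlapped the RefSeq span of a FoxO gene on mm10, widened by 20 kb on both sides, was taken. A promoter peak was one within 1 kb of an annotated start. The 4 windows held 304 of the 505424 peaks of all libraries, which merged into 54 of 95163 regions.

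FoxO proteins bind DNA through a forkhead domain and sit at the end of the insulin and IGF1 pathway. When growth factors activate AKT or SGK1, these kinases phosphorylate FoxO proteins, which are then bound by 14-3-3 proteins and kept out of the nucleus. When the pathway is quiet, nuclear FoxO proteins switch on genes of cell cycle arrest, stress defence, autophagy and, in muscle fibers, protein breakdown, and in MuSCs FOXO3 is known for its part in quiescence and Notch signalling.

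ATAC-seq, in which the Tn5 transposase cuts and tags accessible DNA, was performed on 5000 sorted MuSCs per library. There were 4 Nedd4L-cKO and 3 WT libraries, and the question was whether loss of the ubiquitin ligase NEDD4L changes chromatin accessibility. Nedd4L-cKO mice were Nedd4L fl/fl Pax7 cre/+ animals, in which a constitutive Cre from the Pax7 locus removes Nedd4L in the myogenic lineage from development onwards, and the colony was kept on a C57BL/6 background. All mice were males of 5 to 6 weeks, and each library came from the hindlimb muscles of a separate mouse, so the p-values measure the spread between mice. Whether the WT mice carried Cre or floxed alleles is not given in the sources used here.

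The libraries held 14.4 to 20.1 M tags after duplicates were dropped, and 69302 to 79158 broad peaks. WT replicate 3 was the only library sequenced on lane 2. Promoters of muscle stem cell markers, Pax7 and Myf5 among them, had a peak in all libraries for 10 of 10 genes, and those of 7 immune markers in none. The sort gated out CD31+ and SCA1+ cells, and Pecam1 and Ly6a, the genes of these markers, had no promoter peak in any library. Of markers of other cell types, 2 of 6 endothelial, 2 of 6 fibro-adipogenic and 5 of 6 myonuclear promoters were called in all libraries. The endothelial genes were Kdr and Tek, and the fibro-adipogenic genes Col3a1 and Tcf21. Dcn and Lum (fibro-adipogenic) and Ckm (myonuclear) were called in some libraries. The part of these cell types in the results was not tested.

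The promoters of Foxo1 and Foxo3 are shown because in both windows the strongest region by pileup lay over the start of the gene. Each sequence runs 5′ to 3′ on the coding strand, from 250 bases before to 50 bases after the RefSeq start on GRCm38, the assembly called mm10 elsewhere. Capitals mark the GC box GGGCGG and the CCAAT box CCAAT, each searched on both strands, with adjoining matches run together. The table of promoter sequences had entries for 2 of the 4 genes, and Foxo4 and Foxo6 are named only. The Foxo1 window lies at chr3:52268087-52268386 on the plus strand, and the Foxo3 window at chr10:42276646-42276945 on the minus strand.
Foxo1: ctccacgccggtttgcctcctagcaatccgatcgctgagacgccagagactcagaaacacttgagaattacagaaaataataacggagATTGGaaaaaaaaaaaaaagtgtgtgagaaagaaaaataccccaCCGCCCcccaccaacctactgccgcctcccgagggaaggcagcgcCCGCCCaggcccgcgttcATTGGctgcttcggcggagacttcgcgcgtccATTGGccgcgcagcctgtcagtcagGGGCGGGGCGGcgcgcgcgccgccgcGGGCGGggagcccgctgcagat
Foxo3: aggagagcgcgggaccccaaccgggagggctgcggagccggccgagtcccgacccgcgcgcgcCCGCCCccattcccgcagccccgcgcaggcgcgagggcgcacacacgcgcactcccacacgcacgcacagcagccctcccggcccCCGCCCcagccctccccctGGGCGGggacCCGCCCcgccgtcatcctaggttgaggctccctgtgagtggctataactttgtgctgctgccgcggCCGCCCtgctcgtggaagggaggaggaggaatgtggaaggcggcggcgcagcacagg

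Foxo1 had 5 GC boxes, which 35.7% of all 32851 promoter windows hold at least once, and 3 CCAAT boxes, which 37.4% hold. Foxo3 also had 5 GC boxes, and the CCAAT letters were not found in its window. The GC content was 61.3% for Foxo1 and 75.0% for Foxo3, with 31 and 35 CpG pairs. Neither window had a TATAAA match, present in 13.6% of windows, or a match to GTAAACA, a FoxO binding element present in 3.65%. The cAMP response core TGACG was found once in Foxo3 (20.8% of all windows) and the E-box CANNTG once in Foxo1 (72.3%). The ETS element CCGGAA, held by 14.9% of windows, was found in neither.

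All 4 FoxO promoters carried a peak in every library. Across all genes, 63.4% of promoters were called in all libraries and 31.3% in none. For each promoter peak, the pileup (the mean coverage of tags over the peak, which is per length but not scaled to depth) was placed among all peaks of its own library, from percentile 0 for the lowest to 100 for the highest.

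By pileup, Foxo3 and Foxo6 stood among the highest peaks of every library, Foxo1 came next and Foxo4 last. The Foxo3 promoter, the start of the factor best known in MuSC quiescence, lay at the 99.7, 99.5, 99.5 and 99.7 percentile in Nedd4L-cKO replicates 1 to 4. In WT replicates 1 to 3 it lay at 99.4, 99.7 and 99.3. The 2 genotypes overlapped. The Foxo6 promoter lay at 99.4, 99.7, 97.7 and 99.2 in Nedd4L-cKO and at 98.8, 99.7 and 99.4 in WT, with replicate 3 of the Nedd4L-cKO group the lowest. Foxo1, whose product is known in muscle for driving atrophy genes, lay at 89.4, 94.8, 90.7 and 92.5 in Nedd4L-cKO and at 90.7, 89.3 and 92.3 in WT. Its values overlapped between genotypes, and the highest was Nedd4L-cKO replicate 2. Foxo4, the X-linked member, lay at 67.6, 72.0, 65.4 and 73.2 in Nedd4L-cKO and at 69.9, 72.4 and 67.0 in WT, again with overlap. The unscaled pileup of the promoter peaks ranged from 65.4 to 82.8 tags for Foxo3, from 57.7 to 76.3 for Foxo6, from 41.8 to 52.3 for Foxo1 and from 20.9 to 29.5 for Foxo4.

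The order by pileup held in most libraries. Foxo3 was above Foxo6 in 4 of 7 libraries and their ranges overlapped, so these neighbours did not differ beyond their spread. Foxo6 was above Foxo1 in 7 of 7, by 7.72 ± 1.93 percentile points (SD, n = 7), and Foxo1 above Foxo4 in 7 of 7, by 21.8 ± 3.04, with no overlap in either pair.

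**Figure D1:**
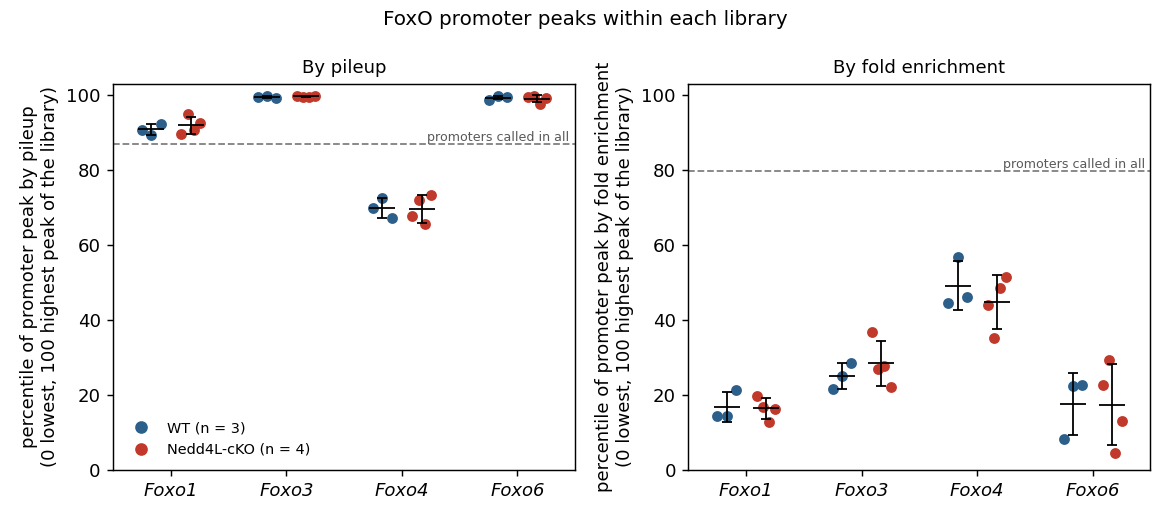
Percentile of the promoter peak of each FoxO gene among all peaks of its library, by pileup (left) and by fold enrichment (right). Points are single libraries, bars are mean ± SD per genotype, and the dashed line is the median of all promoters called in every library (86.8 by pileup, 79.6 by fold enrichment). Foxo3 and Foxo6 sit near 100 by pileup, and all 4 genes sit below the line by fold enrichment.

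By fold enrichment, the ratio of a peak's pileup to the background that MACS2 took from the surrounding stretch or the whole library, the same promoters ranked low and in another order. Foxo4 lay at the 44.0, 35.1, 48.6 and 51.4 percentile in Nedd4L-cKO and at 44.5, 56.6 and 46.2 in WT. Foxo3 lay at 36.7, 27.0, 27.7 and 22.1 in Nedd4L-cKO and at 21.5, 25.1 and 28.6 in WT. Both genes therefore overlapped between genotypes, as they did by pileup. Foxo6 lay at 22.7, 29.3, 4.50 and 12.9 in Nedd4L-cKO and at 8.09, 22.2 and 22.5 in WT. The 3 low Foxo6 values came from Nedd4L-cKO replicates 3 and 4 and WT replicate 1, which were also the libraries with the most tags kept (17.4 to 20.1 M, against 14.4 to 17.1 M in the other 4). The part of depth in this was not tested. Foxo1 lay at 19.7, 16.8, 12.7 and 16.1 in Nedd4L-cKO and at 14.3, 14.4 and 21.2 in WT, with full overlap.

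Foxo4 was above Foxo3 by fold enrichment in 7 of 7 libraries, by 19.7 ± 9.46 points (SD), although their ranges over libraries overlapped. Foxo3 was above Foxo6 in 6 of 7 and Foxo6 above Foxo1 in 4 of 7, and the Foxo6 and Foxo1 ranges did not differ beyond their spread. The fold enrichment itself was 2.77 to 3.08 for Foxo1, 2.90 to 3.40 for Foxo3, 3.27 to 3.90 for Foxo4 and 2.51 to 3.15 for Foxo6.

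Among the 13594 promoters called in all libraries, the FoxO promoters thus took different places on the 2 scales. Foxo3 and Foxo6 stood above 98.2% and 97.6% of them by median pileup, but above only 8.43% and 6.77% by median fold enrichment. For Foxo1 the shares were 62.6% by pileup and 4.77% by fold enrichment, and for Foxo4 19.7% and 17.9%. The ratio of pileup to fold enrichment, only a rough guide to the background MACS2 set for the peak, had a median of 22.8 tags at Foxo3 and 23.2 at Foxo6. These ratios were higher than at 99.1% and 99.2% of called promoters. The ratio at Foxo1 was 15.5 tags (above 93.8% of promoters) and that at Foxo4 was 6.89 (above 38.0%).

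Foxo4 lies on the X chromosome, of which these male mice have a single copy. Of 955 protein-coding promoters on X, 442 were called in all libraries, with a median percentile of 70.8 by pileup and 83.1 by fold enrichment. Foxo4 stood above 47.5% of them by pileup and above 9.50% by fold enrichment. Copy number and accessibility per copy cannot be told apart in these values.

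All peaks of the libraries were called as broad peaks, and the lengths at the FoxO promoters were not compared with those at other promoters. The peak over the start of Foxo1 was 1491 to 3525 bp long, that of Foxo3 2185 to 3500 bp, that of Foxo4 1189 to 2600 bp and that of Foxo6 638 to 1647 bp. Merged over libraries, the promoter regions were chr3:52266731-52270835 for Foxo1, chr10:42275040-42278550 for Foxo3, chrX:101253659-101256356 for Foxo4 and chr4:120287221-120288927 for Foxo6. Each overlapped the transcription start, and exon and intron positions on mm10 were not used here.

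None of the 4 promoters differed between Nedd4L-cKO and WT beyond the spread of the libraries. Ranks within each library were turned into normal scores and compared with limma over all 53245 regions called in every library. In these scores 1 unit is 1 SD of a standard normal distribution, which is not a fixed number of percentile points. The Nedd4L-cKO minus WT difference by fold enrichment was -0.04 for Foxo1 (95% interval -0.41 to 0.33), 0.07 for Foxo3 (-0.35 to 0.49), -0.14 for Foxo4 (-0.55 to 0.27) and -0.06 for Foxo6 (-0.66 to 0.54). By pileup the differences were 0.08 for Foxo1 (-0.19 to 0.36), 0.10 for Foxo3 (-0.15 to 0.36), -0.01 for Foxo4 (-0.23 to 0.21) and -0.11 for Foxo6 (-0.57 to 0.35). All 8 adjusted p-values from limma were 1.00. These intervals are for single regions and are not limits of detection. By fold enrichment the lowest unadjusted limma p of all 53245 regions, 5.36e-05, did not pass adjustment. Differences larger than these bounds could therefore also go uncalled with 7 libraries.

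Away from the promoters, the windows differed in how many regions they held. Of the 54 regions, 33 (61.1%) were called in all libraries, against 56.0% of all regions of the genome, and 6 (11.1%) in 1 library, against 14.7%. Positions are given as the distance of the nearest edge from the transcription start, positive in the direction of transcription.

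Foxo1, on chromosome 3 from 52268337 to 52350109 on the plus strand, had 17 regions, of which 9 were called in every library. Its promoter was the strongest of them by pileup. The other 8 shared regions had median pileup percentiles between 36.6 and 67.4, and the 8 regions called in some libraries between 4.92 and 36.6. By fold enrichment the leading region was 9.60 kb upstream (chr3:52257509-52258738), at 65.9, 72.1, 61.2 and 74.8 in Nedd4L-cKO and 77.7, 64.9 and 58.3 in WT. It was followed by a region 101 kb downstream of the start, beyond the end of the gene (chr3:52369103-52370659), at 51.3, 55.6, 58.3 and 60.1 in Nedd4L-cKO and 44.2, 54.3 and 50.2 in WT. Both sets of values overlapped between genotypes. The next was inside the gene at 54.1 kb (chr3:52322452-52323315), at 19.4, 39.3, 26.0 and 33.0 in Nedd4L-cKO and 16.0, 28.5 and 21.0 in WT, also with overlap.

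Foxo3, on chromosome 10 from 42181845 to 42276695 on the minus strand, had the most regions, 22, with 12 called in every library. Of these 22, 17 lay within the gene behind the promoter. The strongest by fold enrichment was beyond the 3′ end of the gene, 98.0 kb from the start (chr10:42177654-42178655). It lay at 75.6, 78.8, 69.8 and 75.7 in Nedd4L-cKO and at 74.7, 77.2 and 82.8 in WT, and so ranked higher than the Foxo3 promoter on this scale. A region at 54.2 kb (chr10:42221327-42222543) varied more, with 59.4, 72.0, 32.4 and 40.3 in Nedd4L-cKO and 13.7, 65.3 and 58.9 in WT. Its 3 low values came from Nedd4L-cKO replicates 3 and 4 and WT replicate 1, the libraries with the most tags kept. At the Foxo3 region 71.2 kb from the start, the same 3 libraries were instead the highest by fold enrichment. They lay there at 63.0 to 67.4 and the others at 33.4 to 45.8. The part of depth was not tested. A region at 24.4 kb (chr10:42250522-42252271), which also overlaps the predicted gene Gm38485, lay at 61.7, 42.8, 44.7 and 56.2 in Nedd4L-cKO and 42.9, 56.2 and 59.7 in WT.

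Foxo4, on chromosome X from 101254261 to 101260873 on the plus strand, was the shortest gene and had 3 regions, all called in every library. Its window was the only one that held the start of another protein-coding gene. The region 19.2 kb downstream (chrX:101273487-101274763) covered the start of Med12, which encodes a subunit of the Mediator kinase module. By fold enrichment it lay at 98.8, 96.7, 98.3 and 95.4 in Nedd4L-cKO and 96.5, 93.6 and 96.3 in WT, above the Foxo4 promoter in every library. No library had a peak at the start of Il2rg, which encodes the common gamma chain of lymphocyte interleukin receptors, or at that of the predicted gene Gm614. The remaining region, at 5.88 kb over the end of Foxo4 (chrX:101260143-101261414), lay at 31.7, 31.7, 39.9 and 40.6 in Nedd4L-cKO and 46.3, 27.5 and 42.7 in WT. The groups overlapped there.

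Foxo6, on chromosome 4 from 120267078 to 120287261 on the minus strand, had 12 regions, 9 of them in every library and 3 in 1 library each. It had a strong second region inside the gene, 9.08 kb from the start (chr4:120276759-120278177). By pileup this region lay at 97.3, 97.6, 98.7 and 99.4 in Nedd4L-cKO and 99.3, 99.0 and 99.1 in WT, above the promoter in 3 of 7 libraries. By fold enrichment it lay at 69.5, 70.4, 77.1 and 77.6 in Nedd4L-cKO and 73.0, 77.1 and 77.8 in WT, above the promoter in 7 of 7. The next by fold enrichment were 37.6 kb away beyond the gene's end (chr4:120248392-120249700), with a median of 64.8, and 17.7 kb inside the gene (chr4:120268016-120269534), with a median of 59.2. The region just before the promoter, 2.2 kb upstream and over the antisense gene Foxo6os, lay at a median of 93.3 by pileup and 2.85 by fold enrichment.

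The most variable FoxO region was 16.6 kb upstream of Foxo6 (chr4:120303890-120305014), chosen for mention after its values were seen. By fold enrichment it lay at 33.3, 16.7, 86.4 and 84.3 in Nedd4L-cKO and at 90.5, 49.1 and 45.3 in WT. Its range over libraries, 73.8 percentile points, was wider than that of 99.7% of all shared regions, for which the median range was 23.7. The 3 high values were those of Nedd4L-cKO replicates 3 and 4 and WT replicate 1, the libraries with the most tags kept. WT replicate 1, at 90.5, had 17.4 M tags kept, and WT replicate 2, at 49.1, had 17.1 M. The part of depth was not tested. By pileup the same 3 libraries lay at 45.9 to 53.6 and the other 4 at 4.82 to 19.1. Its difference between genotypes was -0.21 by fold enrichment (95% interval -1.54 to 1.13, adjusted p = 1.00 in limma).

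**Figure D2:**
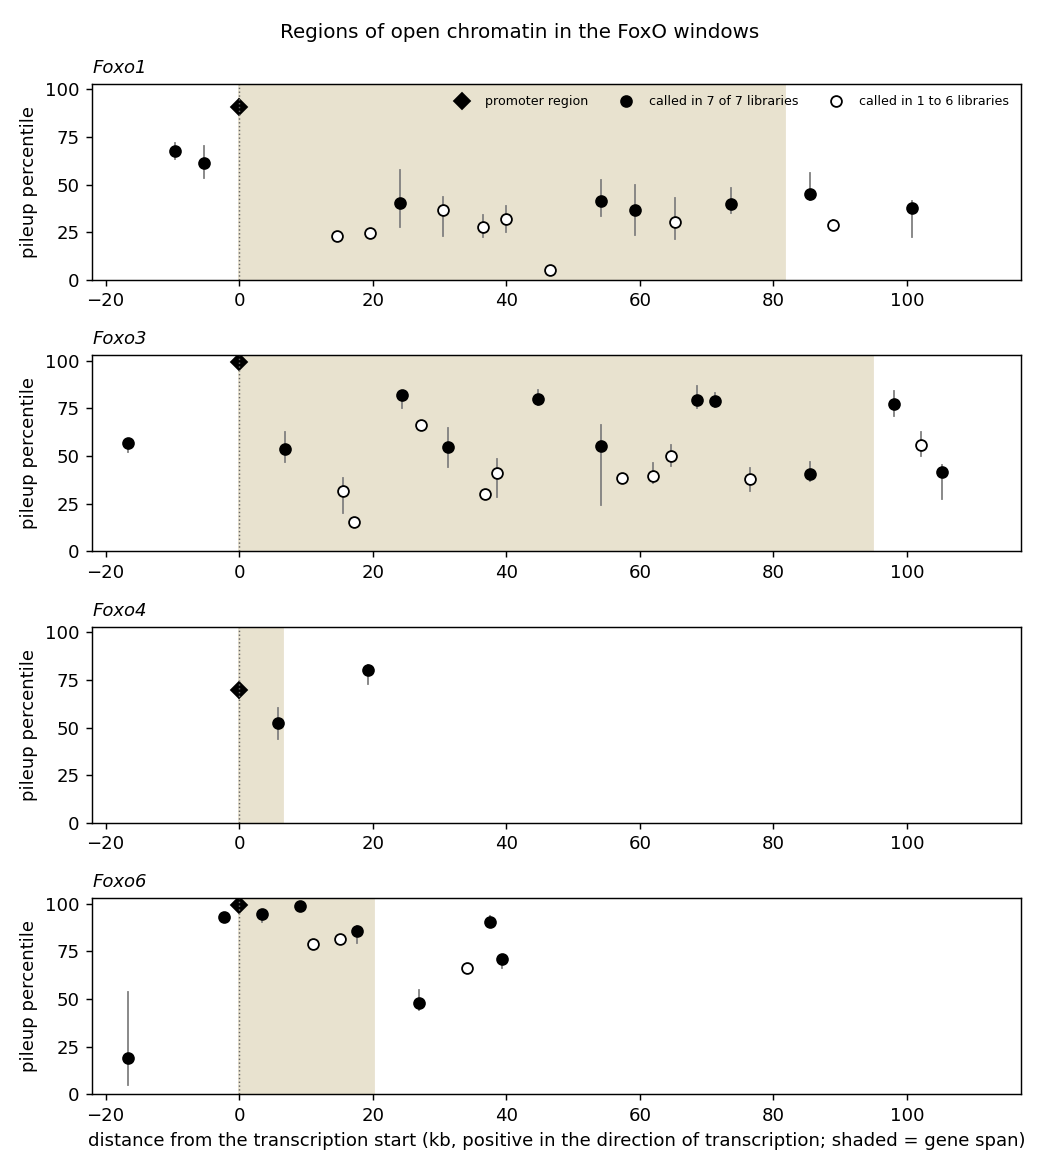
Median percentile by pileup of each region in the 4 FoxO windows against the distance of its nearest edge from the transcription start in kb. Lines span the lowest to the highest library, filled symbols are regions called in 7 of 7 libraries, open symbols those called in fewer, diamonds are promoters and shading is the gene span. The Foxo1, Foxo3 and Foxo6 promoters are the highest regions of their windows, and the Foxo6 region 16.6 kb upstream has the longest line.

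Relative to window length, Foxo6 was the densest, with 15.7 peaks per 100 kb as a mean over libraries, more than 98.3% of all protein-coding gene windows, whose median was 4.59. Foxo3 had 13.1 peaks per 100 kb (more than 94.8% of windows), Foxo1 10.8 (87.9%) and Foxo4 6.74 (65.8%). Peaks covered a mean of 15.7% of the Foxo6 window, 11.9% of the Foxo3 window, 9.75% of the Foxo1 window and 8.26% of the Foxo4 window.

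The number of peaks did not separate the genotypes in any window. Foxo1 had 12, 13, 14 and 15 peaks in Nedd4L-cKO replicates 1 to 4 and 12, 11 and 15 in WT, a difference of 0.833 (exact permutation test, two-sided, p = 0.657). Foxo3 had 17, 16, 18 and 19 in Nedd4L-cKO and 18, 18 and 18 in WT, a difference of -0.5 (exact permutation test, p = 0.714). The groups overlapped in both windows. Foxo4 had 3 peaks in every library except WT replicate 1, which had 4 (difference -0.333, exact permutation test p = 0.429). Foxo6 had 9, 11, 9 and 9 in Nedd4L-cKO and 9, 9 and 10 in WT (difference 0.167, exact permutation test p = 1). No window reached p under 0.05, which 0.415% of all 21440 gene windows did, and the smallest p that 4 against 3 libraries allow is 0.0286. Adjusted over all windows, each of the 4 p-values was 1.

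**Figure D3:**
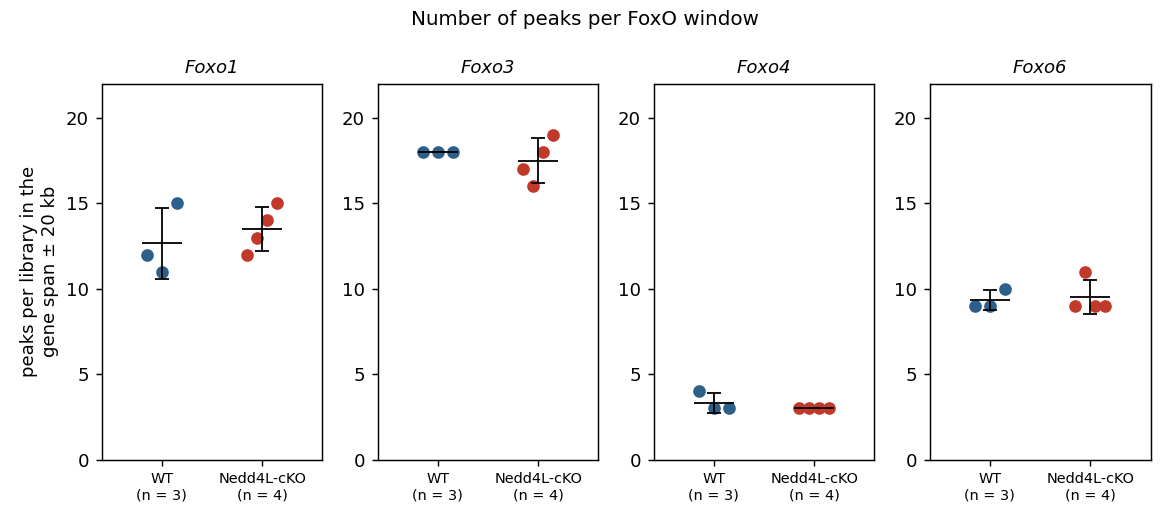
Number of peaks per library in each FoxO window (gene span ± 20 kb), for WT and Nedd4L-cKO. Points are libraries and bars are mean ± SD. Foxo3 has 16 to 19 peaks, Foxo1 11 to 15, Foxo6 9 to 11 and Foxo4 3 or 4, with overlapping genotypes in each window.

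No region of the 4 windows was called in all libraries of one genotype and none of the other. Over the genome, 0.0694% of regions were called in all Nedd4L-cKO and no WT libraries, and 0.082% the other way round. The nearest case was a weak region inside Foxo1 at 36.5 kb (chr3:52304868-52305841), called in all 3 WT libraries and in Nedd4L-cKO replicate 4. Its pileup percentiles were 22.6, 24.5 and 33.9 in WT and 31.0 in that library. Without Nedd4L-cKO replicate 4, it was called in WT libraries and no other.

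Of the 33 FoxO regions that could be tested, 0 passed an adjusted p of 0.05 in limma by fold enrichment, as did 0.0% of all 53245 regions. At an unadjusted p under 0.05, 1 FoxO region passed, against 3.98% of all regions. By pileup, 0 FoxO regions passed after adjustment, against 0.0% of all regions, and 0 before it, against 2.71%. By fold enrichment 16 FoxO regions were higher and 17 lower in Nedd4L-cKO, with a median difference of -0.02 against 0.01 over all regions. By pileup 14 were higher and 19 lower, with a median of -0.01 against -0.00126 over all regions.

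The FoxO region with the lowest p lay beyond the 3′ end of Foxo3, 105 kb from the start (chr10:42169965-42171447). By fold enrichment it lay at 27.7, 39.6, 39.3 and 9.49 in Nedd4L-cKO and at 7.16, 15.2 and 6.46 in WT. Nedd4L-cKO replicate 4 fell among the WT values and the other 3 lay above them. The difference was 0.64 ± 0.28 (SE, unadjusted p = 0.0486, adjusted p = 1.00, limma). In the other direction the lowest p was at the region 39.4 kb from the Foxo6 start (chr4:120247187-120247898), over the predicted gene Gm36134. It lay at 6.40, 1.09, 2.19 and 1.34 in Nedd4L-cKO and 3.16, 4.40 and 5.12 in WT, a difference of -0.26 ± 0.22 (SE, unadjusted p = 0.257, adjusted p = 1.00, limma).

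In the Foxo1 window, the lowest p towards WT belonged to the region 5.29 kb upstream (chr3:52262384-52263046), at 4.88, 15.2, 5.14 and 6.32 in Nedd4L-cKO and 27.7, 2.86 and 26.6 in WT. Its difference was -0.34 ± 0.31 (SE, unadjusted p = 0.295, adjusted p = 1.00, limma), and WT replicate 2 lay below every Nedd4L-cKO library. In the same window, the region 101 kb away described above had the lowest p towards Nedd4L-cKO (0.18 ± 0.17, unadjusted p = 0.302, adjusted p = 1.00, limma). In the Foxo3 window the lowest p towards WT belonged to the region at 98.0 kb (-0.13 ± 0.17). In the Foxo4 window the lowest p towards Nedd4L-cKO was at 19.2 kb (0.29 ± 0.21) and that towards WT at the promoter (-0.14 ± 0.18). In the Foxo6 window the lowest p towards Nedd4L-cKO was at 17.7 kb (0.06 ± 0.21). Each of these had an adjusted p of 1.00 in limma.

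By fold enrichment, in 0 FoxO regions did all Nedd4L-cKO libraries lie above all WT libraries, against 2.67% of all regions, and in 0 did all lie below, against 2.09%. By pileup, 2 FoxO regions had all Nedd4L-cKO libraries above WT, against 1.82%, and 0 below, against 1.78%. The first was the Med12 start region in the Foxo4 window, at 82.2, 80.0, 82.7 and 80.7 in Nedd4L-cKO and 78.8, 73.0 and 78.6 in WT (difference 0.17 ± 0.10, SE, adjusted p = 1.00 in limma). The other was 71.2 kb inside Foxo3 (chr10:42204364-42205494), where the pileup ranks of regions were 0.09 ± 0.08 (SE) higher in Nedd4L-cKO (adjusted p = 1.00, limma). Placed among all peaks, that region lay at 78.9, 79.6, 80.0 and 83.1 in Nedd4L-cKO and 78.9, 75.7 and 79.1 in WT, and there the genotypes overlapped.

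**Figure D4:**
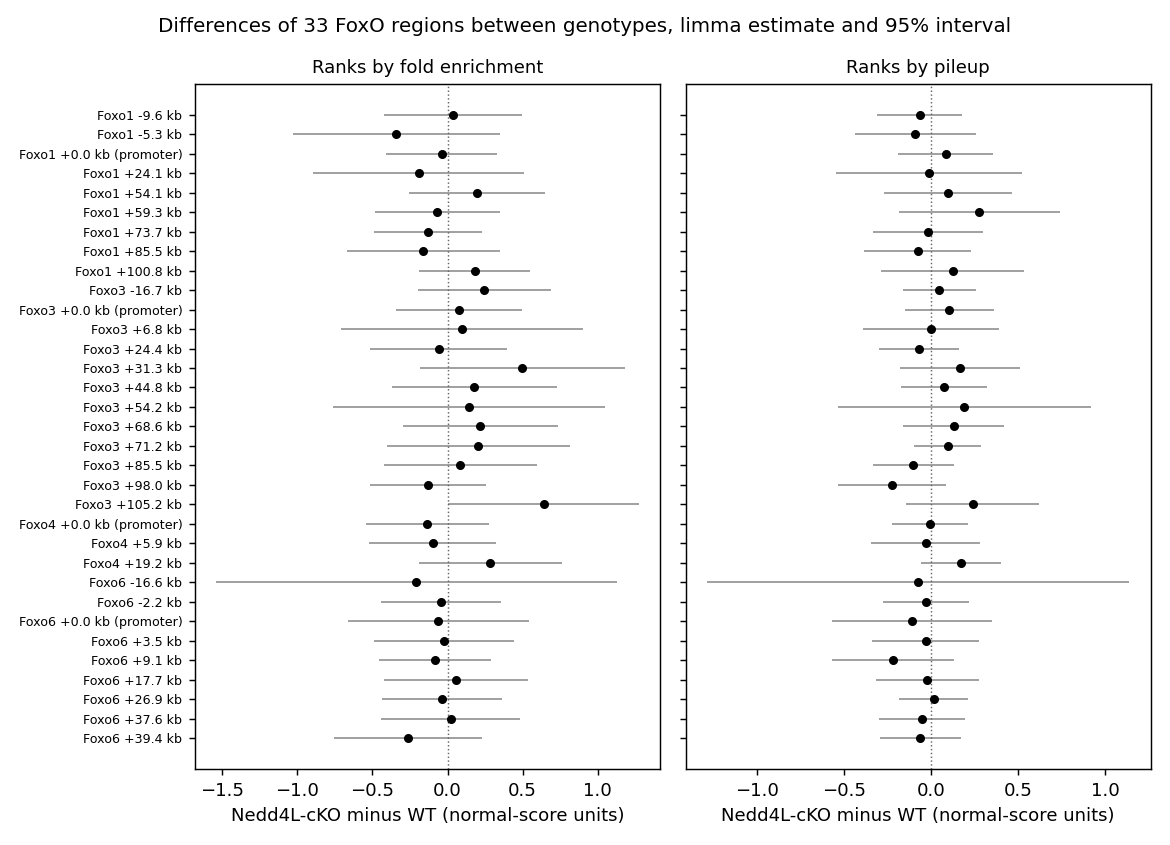
Difference between Nedd4L-cKO and WT of the 33 FoxO regions called in every library, in normal-score units of the rank by fold enrichment (left) and by pileup (right). Points are limma estimates and lines 95% intervals. All lines cross 0 except that of the region 105 kb from the Foxo3 start by fold enrichment, whose lower bound is 0.005.

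The promoters most like each FoxO promoter were sought by the root mean square distance over 14 values, the 2 percentiles in each of the 7 libraries. Nearest to Foxo1 were Mxra7, Tapbp and Adgra2, at 2.60 to 2.66 percentile points. Nearest to Foxo3 were Kmt2e, Six2 and Abhd8, at 2.72 to 3.05. Foxo4 was nearest to Epor, Clstn1 and Slc5a3, at 4.07 to 5.02. Foxo6 was nearest to LOC114841036 and Fkbp2, which share a start region, at 2.67, and to Lpin3 at 5.04.

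Of 73 genes of the FoxO pathway (Insr and Irs2 stand in the lists of both upstream genes and targets), 66 promoters were called in every library, 1 in some and 6 in none. These counts, and those of the single lists below, stand beside 63.4% of all promoters called in every library and 31.3% in none. The median of those called in all was 94.2 by pileup and 58.6 by fold enrichment, against 86.8 and 79.6 for all called promoters. In limma, 67 of the pathway promoter regions could be tested (a region may be called in all libraries where the peak at the start is not). Of these, 0 passed after adjustment, against 0.0% of all regions by either measure. Before adjustment 0 passed in either direction, against 3.98% of all regions by fold enrichment and 2.71% by pileup. By pileup, 2 of the 67 had all Nedd4L-cKO libraries above WT, against 1.82% of all regions, and 0 had all below, against 1.78%. These were Sesn3, a stress response gene (difference 0.19 ± 0.10, SE, adjusted p = 1.00, limma), and Xpo1, which encodes a nuclear exporter of FoxO proteins (0.15 ± 0.09, SE, adjusted p = 1.00, limma), both named after their values were seen. By fold enrichment the genotypes overlapped at both.

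Upstream of FoxO, 13 of 14 promoters of insulin and IGF1 receptors, adaptors and kinases were called in all libraries, with a median pileup percentile of 94.1. The highest were Sgk1 (99.0), a kinase that phosphorylates FoxO proteins, and Mtor (98.7), and the lowest were Rictor (75.3), the scaffold of mTOR complex 2, and Pdpk1 (82.5), which activates AKT. Of 19 genes whose products modify or carry FoxO proteins, 18 were called in all libraries. Here Stub1, a ubiquitin ligase, lay highest (99.6), followed by the deacetylase gene Sirt2 (97.4), and the acetyltransferase gene Crebbp (78.9) and the AMPK subunit gene Prkaa1 (80.0) lay lowest. Ywhaz, a 14-3-3 gene, had no peak at its listed start.

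Targets of cell cycle arrest were called in all libraries for 8 of 8 genes, with a median pileup percentile of 97.8. Gadd45b (99.8) and the p21 gene Cdkn1a (99.7) lay highest, and Rbl2 (93.6) and the p27 gene Cdkn1b (97.6) lowest. All 9 promoters of stress and apoptosis targets were called, from Sesn1 (99.0) and the BIM gene Bcl2l11 (99.0) down to the peroxidase gene Prdx3 (92.3) and the NOXA gene Pmaip1 (70.5). Notch pathway genes linked to quiescence were called in all libraries for 4 of 5, with Heyl (99.4) and Hey1 (97.5) highest and Hes1 (96.6) and Notch1 (97.4) lowest by pileup. By fold enrichment the same promoters ranked far lower, with medians of 0.616 for Heyl, 1.36 for Notch1, 4.83 for Hes1 and 49.5 for Hey1. Notch3 had a promoter peak in 1 library, a Nedd4L-cKO library, at the 89.3 percentile.

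Among atrophy and autophagy targets 12 of 13 promoters were called in all libraries. Eif4ebp1, a brake on translation, lay at 99.0 and the ubiquitin ligase gene Fbxo30 at 96.8, while Fbxo31 (82.3) and the mitophagy receptor gene Bnip3 (76.3) were lowest. Trim63, the muscle ubiquitin ligase MuRF1, had no promoter peak in any library. Metabolic targets were called for 4 of 7 genes, with Pdk4 (99.9) and Irs2 (98.5) highest and Ppargc1a (87.6) and Insr (86.8) lowest. The 3 without a peak in any library were G6pc and Pck1, which encode enzymes of gluconeogenesis, and Igfbp1, genes best known from liver. By fold enrichment the list medians were 40.3 for upstream genes, 73.3 for modifiers and 3.09 for Notch pathway genes. Those of the other targets were 29.4 for cell cycle, 87.2 for stress and apoptosis, 61.5 for atrophy and autophagy and 75.3 for metabolism. The median of all called promoters on this scale was 79.6.

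**Figure D5:**
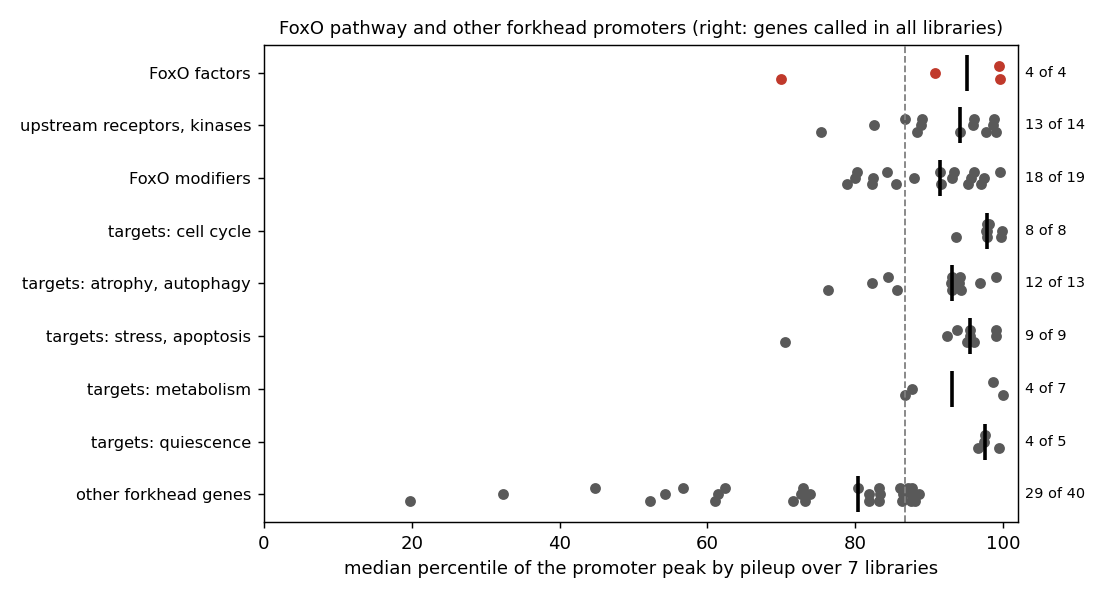
Median percentile by pileup over 7 libraries of the promoter peaks of FoxO pathway genes and of other forkhead genes. Each point is a gene called in all libraries, vertical bars are list medians, the dashed line is the median of all called promoters (86.8), and the numbers at the right give the genes called in all libraries. By these medians, Foxo1, Foxo3 and Foxo6 lie above all 29 other forkhead promoters shown.

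The FoxO element GTAAACA, searched on both strands, was found in 6 of 37 promoter windows (16.2%) of the target genes, against 3.65% of all windows. The genes were Bbc3, Bcl2l11, Btg1, Sesn1, Trim63 and Txnip. All but Trim63 had a promoter peak in every library, with median pileup percentiles of 95.5 for Bbc3, 99.0 for Bcl2l11, 97.7 for Btg1, 99.0 for Sesn1 and 96.0 for Txnip. Each percentile is that of the highest peak over all starts of the gene. Bbc3, Bcl2l11 and Sesn1 have several starts, and not all of their windows hold the element. For these genes the peak may lie at a start without the element. The windows of Txnip (chr3:96557707-96558006, plus strand), a thioredoxin inhibitor gene, and Trim63 (chr4:134314870-134315169, plus strand) are shown because both hold the element and only Txnip had a promoter peak. Capitals mark the element.
Txnip: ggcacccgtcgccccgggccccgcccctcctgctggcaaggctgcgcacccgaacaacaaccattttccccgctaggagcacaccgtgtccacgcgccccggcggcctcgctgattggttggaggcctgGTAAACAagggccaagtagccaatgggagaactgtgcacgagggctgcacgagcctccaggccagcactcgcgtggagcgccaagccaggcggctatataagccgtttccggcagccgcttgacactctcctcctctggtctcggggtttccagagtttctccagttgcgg
Trim63: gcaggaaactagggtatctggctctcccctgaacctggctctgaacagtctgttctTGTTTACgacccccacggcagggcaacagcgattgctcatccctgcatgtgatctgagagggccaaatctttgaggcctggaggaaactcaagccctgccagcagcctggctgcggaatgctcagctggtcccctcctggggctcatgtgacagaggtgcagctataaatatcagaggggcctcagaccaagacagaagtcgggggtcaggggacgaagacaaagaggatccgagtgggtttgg

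Counted from the start, the element began at -121 in Txnip, as GTAAACA on the coding strand, and at -194 in Trim63, where these letters are on the other strand. A match is a description of the letters and not a site of binding.

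Of the 40 other forkhead genes, 29 had promoter peaks in all libraries, 4 in some and 7 in none. Their median was 80.4 by pileup and 42.0 by fold enrichment. By median pileup, 0 of the 29 lay above Foxo1, Foxo3 or Foxo6, and 20 lay above Foxo4. By fold enrichment 24 lay above Foxo1, 20 above Foxo3, 20 above Foxo6 and 14 above Foxo4. The highest by pileup were Foxp4 (88.6) and Foxh1 (88.1), and the lowest Foxe3 (32.4) and Foxi3 (19.8). Over libraries Foxp4 ranged from 87.2 to 90.9 and so overlapped Foxo1 (89.3 to 94.8). Among those called in some libraries were Foxa2 (4 libraries), Foxb1 (2) and Foxl1 (1), and Foxi1, Foxi2, Foxn1, Foxn4, Foxp3, Foxr1 and Foxr2 were called in none. In limma, 30 of their promoter regions could be tested, of which 0 passed after adjustment and 0 before it by either measure.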

How the data were processed

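The authors prepared ATAC-seq libraries from sorted MuSCs (ITGA7+, CD31-, CD45-, CD11b-, SCA1-). Reads were trimmed with Trimmomatic 0.39, aligned to mm10 with BWA 0.7.17 and stripped of duplicates with Picard 2.26.3. Broad peaks were called by the authors with MACS2 2.2.7.1 for each library on its own, with no control and no pooling. Among the deposited columns, pileup is a coverage signal averaged over the peak and left unscaled. The ratio of that signal to the background MACS2 set nearby was deposited as fold enrichment. Each deposited p-value and q-value is a -log10.

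Libraries were grouped by the genotype in their labels. Because pileup and fold enrichment come from separate runs, they were placed as percentiles within a library. Where several peaks met a promoter or region, the highest was taken. Overlapping peaks (at least 1 bp) were merged into regions. Regions called in all 7 libraries were compared with limma 3.58.1 (R 4.3.3, lmFit and eBayes on normal scores of ranks, no covariate, all libraries, Benjamini-Hochberg adjustment over 53245 regions), by fold enrichment and by pileup. Peaks per window were compared with an exact permutation test over all 35 arrangements of the libraries. Other values are descriptions. Both tests were tried on simulated data, with planted differences larger than any found in the FoxO regions and windows. Whether smaller differences would be found was not tried.

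Gene spans and starts came from RefSeq on GRCm38, with strands from RefSeq for 17492 genes and from GENCODE by symbol for 3948 (Foxo4 and Foxo6 among them). The highest peak end on chromosome 1 was 195371800, beyond the end of that chromosome in GRCm39, whose coordinates were not used. Coordinates are 1-based. No 2 libraries shared a peak with equal ends and pileup.

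The members and lists were chosen with earlier results of these data known. Named by rule were the 4 genes, their promoter regions, the 3 other shared regions per window highest by fold enrichment, the regions of lowest p in each direction, separating regions, genes starting in a window, the 3 most alike promoters, and in each list the genes called in no or some libraries, the 2 highest and 2 lowest by pileup, and any promoter past an unadjusted p of 0.05. Of these, 2 genes enter the counts and are otherwise not reported here. Alternatives were a -log10 q of at least 5, equal numbers of peaks (69302), broad peaks holding a narrow one, other windows, other limma settings, a depth covariate, lane 1 only, a replicate block and leaving out each library. Python 3.11.15 was used with pandas 2.3.3, scipy 1.17.1, numpy 2.4.6 and, for plots, matplotlib 3.10.9.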

Additional observations from a re-analysis of the deposited data

Results flagged for a closer look

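In the group of 4 Nedd4L-cKO libraries, 69 measures of the FoxO windows were checked for a library far from the others by Dixon's test. It picked out 5, where chance picks out about 1 in 20 of independent measures on a continuous scale. That rate is only a rough guide here, because many measures come from the same region and some are counts. Among counts, the test always picks out a single value that differs from otherwise equal ones. Of the 5 measures, 4 concerned Nedd4L-cKO replicate 2. It had 11 peaks in the Foxo6 window and the other libraries of its group 9 each. By fold enrichment, the Foxo1 region 5.29 kb upstream lay at the 15.2 percentile there and at 4.88 to 6.32 in the others, the Foxo1 region at 24.1 kb at 36.3 against 5.74 to 9.30, and the Foxo1 region at 85.5 kb at 31.6 against 12.4 to 13.9. In Nedd4L-cKO replicate 1, the Foxo6 region at 17.7 kb lay at 52.3, below the 59.2 to 60.5 of the others.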

How the results depend on the processing

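The promoter calls (4 of 4 genes) and the absence of adjusted calls in limma held under every alternative that was run. In limma, 0 of 53245 regions passed adjustment in the main run, and runs with a library left out had less power still. An absence of calls in those runs therefore adds little. For the promoter calls, leaving out libraries or widening the promoter window could not have given another result, because each promoter had a peak in every library. Only the alternatives that dropped peaks could have changed these calls. Over 14 alternatives per measure, with 16 to 36 FoxO regions tested, the lowest adjusted p was 0.867 by fold enrichment and 0.992 by pileup, and 0 to 3 and 0 to 2 regions passed unadjusted. One region, at 36.5 kb in Foxo1, was called in WT libraries alone with equal numbers of peaks (1 region), and leaving out single libraries gave 0 to 1. None of the differences in number of peaks passed a test, and several changed sign. With single libraries left out, or on lane 1 only, too few arrangements remained for the exact permutation test to reach p under 0.05. Those runs could not have passed it. Leaving out single libraries moved that of Foxo1 from 0.833 to between 0 (without WT replicate 2) and 2 (without WT replicate 3), also to 0.333 without Nedd4L-cKO replicate 4, 0.5 without WT replicate 1 and 1.33 without Nedd4L-cKO replicate 1. For Foxo3 the range was -1 (without Nedd4L-cKO replicate 4) to 0 (without Nedd4L-cKO replicate 2), and for Foxo4 -0.5 (without WT replicate 2 or 3) to 0 (without WT replicate 1). For Foxo1 the difference was -0.333 with a -log10 q of at least 5, -0.5 with equal numbers of peaks and -1.42 with broad peaks holding a narrow one. For Foxo3 it was 0.917, 0.5 and 0.0833 under the same settings and 0.316 kb as covered length. For Foxo4 it was 0.334 kb as covered length. For Foxo6 it was -0.0833 with broad peaks holding a narrow one, and -0.333 to 0.5 when single libraries were left out (negative without Nedd4L-cKO replicate 2). Promoter differences in limma, none of them called, changed sign as follows. By fold enrichment Foxo1 moved to 0.0197 on lane 1 only (leaving out single libraries, -0.0825 to 0.0197), and Foxo3 ranged from -0.0163 to 0.18. Foxo6 moved to 0.0138 on lane 1 only, 0.0029 with a replicate block and 0.0414 with log2 tags kept as covariate, and ranged from -0.23 to 0.12. By pileup Foxo4 ranged from -0.0549 to 0.0351 and Foxo6 from -0.24 to 0.0252. Why these signs changed was not tested.

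Libraries with the same replicate number did not deviate together (correlations -0.12, 0.03 and -0.12 for numbers 1 to 3), so the numbers were not taken to pair mice. Pairs with unlike numbers ran from -0.15 (Nedd4L-cKO replicate 2 with WT replicate 1) to 0.15 (Nedd4L-cKO replicate 3 with WT replicate 1). WT replicate 1 also had 0.13 with Nedd4L-cKO replicate 4, and WT replicate 3 had 0.12 with each of Nedd4L-cKO replicates 1 and 2. What such libraries share was not tested. With the replicate block the differences in peaks were 0.333 for Foxo1, -1 for Foxo3, -0.333 for Foxo4 and 0.333 for Foxo6, and 0 FoxO regions were called.

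The main limits are 7 libraries, peak lists in place of reads, and values that are not scaled between libraries, so that a shift shared by all regions of a library could not be seen. A missing peak means no call at the authors' threshold.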
